A study of Pyrus ussuriensis with 15 samples.

Results

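The models described here are 403 gene models of the pear genome that carry very long stretches of non-coding sequence between their coding ends, called long-intron models below. The rule that chose them uses structure alone: an ID with the prefix Pbr, a coding length from 600 to under 4500 bases, and at least 10000 bases of the span on the scaffold that are not coding. It was set with earlier results of these data known. They make up 403 of 44681 models in the table. They were set beside 14691 short-intron models, which have the same prefix and range of coding length and 1 to 2000 non-coding bases. RNA came from *Pyrus ussuriensis* Maxim, an Asian pear, as adventitious roots formed on adventitious buds that had been subcultured for 25 days and then kept on a rooting medium with 0.5 mg/L IBA, an auxin. The groups are days 3, 6, 9 and 12 on this medium and day 0, with 3 libraries each. The tissue label reads adventitious roots on every day, day 0 included, and could not be checked by marker genes, since no names are given with the IDs here. The title of the series counts 4 stages where the labels have 5 days. The labels state no further treatment or genotype. They do not say that the libraries of a day came from separate cultures, so p-values reflect library-to-library spread that could be technical only.

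An intron is transcribed with its gene and is then cut out by the spliceosome, so that it is part of the gene's span but not of its mature messenger RNA. Plant introns are mostly short, and very long ones often hold copies of transposable elements. A polymerase has to cross the whole span before a transcript is complete, which makes genes with long introns slow to transcribe. Adventitious roots form outside the normal root system, for instance at the base of a cutting, and auxin is the hormone used to set off their formation.

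Long-intron models had a median of 16022 non-coding bases (quartiles 11916 and 24656, largest 65437), against 945 bases in short-intron models (quartiles 485 and 1413). Only 9.76% of the 8925860 bases they span was coding, against 58.4% in short-intron models. The non-coding bases are taken here as introns. All 403 lengths are multiples of 3, as coding lengths are, and 5395 Pbr models of this length span no base beyond it. The table does not say whether the spans of other models take in untranslated regions, so part of the non-coding bases may be these. Sizes of single introns were not analysed here. The 403 models lay on 313 scaffolds, at most 4 on any of them, with 200 on the plus strand. None of the 403 overlapped another listed model, and the median gap to the nearest model was 2473 bases, against 1915 bases for short-intron models. Their coding sequences were also longer, with a median of 2094 bases (quartiles 1335 and 2950) against 1170 bases (quartiles 876 and 1614). Of the long-intron models, 31.3% had at least 2700 coding bases, against 5.39% of the short-intron models, whereas 20.8% and 52.2% had under 1200. The last part of an ID was above 1 in 59 long-intron models, or 14.6%, against 6.17% of short-intron models, and no source used here says what this number stands for.

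Long-intron models were expressed at much the same level per length as short-intron models. The median of the deposited FPKM values, which are counts relative to model length and library total, was 9.39 over the 311 long-intron models that passed the filter on low counts (quartiles 3.14 and 21.7), against 8.93 over the 10901 short-intron models that passed it (quartiles 2.61 and 25.9). Over every listed model, tested or not, the medians were 5.14 FPKM and 4.03 FPKM. The order differed with coding length. Among tested models of at least 2700 coding bases, the median was 11.9 FPKM in long-intron models and 3.86 FPKM in short-intron models, while among those under 1200 bases it was 8.30 and 11.9 FPKM. The highest mean was 146 FPKM in a long-intron model and 2706 FPKM in a short-intron model. The other 92 long-intron models were not tested, with a median of 5.5 counts over all 15 libraries together, and 27 of these had no count in any library. A filter that asks for counts in some libraries leaves out silent models, so the 311 tested models stand for the expressed part of the 403.

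Between 11953240 and 17878524 reads were counted per library over all models. In day 6, the libraries correlated with each other at 0.951 to 0.962 over the tested long-intron models (Pearson's r of log2 CPM across models, which are not independent replicates), below the 0.970 to 0.988 within the other days. No 2 libraries of a day agreed within counting noise.

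Long-intron models took a smaller share of the reads at day 9 than on any other day. On days 0, 3, 6, 9 and 12 their share was 1.40 ± 0.0209%, 1.37 ± 0.0366%, 1.34 ± 0.0175%, 0.992 ± 0.00604% and 1.28 ± 0.0493% (SD, n = 3 each). The 3 day 9 libraries, at 0.985% to 0.996%, lay below all the other libraries, which ran from 1.25% to 1.42%. Short-intron models took 37.9 ± 0.325% at day 0, 37.4 ± 0.341% at day 9 and 40.7 ± 0.268% at day 12 (SD, n = 3 each). The median level of the tested long-intron models, per length, was 9.36 ± 0.193, 9.92 ± 0.270, 9.92 ± 0.612, 6.90 ± 0.154 and 9.20 ± 0.436 FPKM in that order of days (SD, n = 3 each). For short-intron models the same medians were 9.05 ± 0.261, 8.78 ± 0.174, 8.60 ± 0.405, 7.74 ± 0.125 and 8.62 ± 0.0905 FPKM on these days. The long-intron median thus lay above the short-intron median on the means of days 0, 3, 6 and 12 and below it at day 9.

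Changes between days were tested for each model with edgeR's quasi-likelihood test over all 29134 tested models, and a model was called at a Benjamini-Hochberg FDR under 0.05. Few long-intron models were called early. An unadjusted p under 0.05 in the same test at day 3 was found in 63 of 311, against 3082 of 10901 short-intron models. At day 3, 7 of 311 rose and 8 fell against day 0, or 2.25% and 2.57%, where 4.47% and 4.9% of all tested models did (9.36% in either direction). Short-intron models were called higher in 5.16% and lower in 5.91%. The median log2 fold change was 0.052 in long-intron models, -0.009 in short-intron models and -0.008 in all tested models. The typical size of a change, with its sign left out, was also smaller, with a median of 0.181 in long-intron models against 0.291 in short-intron models on the log2 scale. This difference was still there among models of like coding length and like mean level, where the medians were 0.193 and 0.276 (short-intron models weighted to the long-intron models' spread over 4 bands of coding length and 4 classes of mean log2 CPM, a weighting chosen after the values had been seen). The median standard error of the log2 change was 0.164 in long-intron models and 0.224 in short-intron models. Unsigned changes of this size thus hold estimation error, which was smaller in long-intron models. Standard errors within the bands and classes were not compared. The 15 calls depended on single libraries. Leaving out replicate 1, 2 or 3 of day 3 gave 8, 2 or 4 calls, and leaving out replicate 2 of day 0 gave 3. Calls over all models also fell in these fits, from 2728 to 1488, 1004, 1488 and 1052 in that order. A fit that had no day 6 library made 36, where 17.4% of all models were called, and DESeq2 made 30, where 14.3% were.

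Day 6 was much the same. Against day 0, 13 long-intron models rose and 7 fell, or 4.18% and 2.25%, where 5.3% and 4.26% of all tested models did (9.56% in either direction). Of the short-intron models, 5.94% were higher and 5.14% lower. The median log2 fold change was 0.026 in long-intron models, -0.004 in short-intron models and -0.003 in all tested models. Its size without sign had a median of 0.191 against 0.281, and of 0.235 against 0.285 among models of like coding length and mean level, so that the gap was smaller there. The median standard errors were 0.164 in long-intron models and 0.224 in short-intron models, so these sizes too hold estimation error. In place of these 20 calls there were 4 when replicate 2 of day 0 was left out, 37 when replicate 1 of day 6 was, and 35 by DESeq2, which called 14% of all tested models. Calls over all models were 1110 without replicate 2 of day 0 and 4382 without replicate 1 of day 6, against 2785. A fit on only the libraries of days 0 and 6 called 0 long-intron models by edgeR's test, where it called 25 of all models, or 0.0905%, and 34 long-intron models had an unadjusted p under 0.05 in it.

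At day 9, far more long-intron models fell than rose. Against day 0, 124 of 311 fell and 53 rose, while 134 were not called. This is 39.9% lower and 17.0% higher, where 26.7% and 23% of all tested models were called in these directions (49.7% in either). Short-intron models were called lower in 25.0% and higher in 21.1%. At least 2-fold, 61 long-intron models fell and 14 rose, or 19.6% and 4.50%, against 12.7% and 7.99% of short-intron models and 14% and 9.29% of all tested models. The median log2 fold change was -0.33 in long-intron models (quartiles -0.89 and 0.218), -0.033 in short-intron models (quartiles -0.60 and 0.468) and -0.024 in all tested models. Taking each day 9 library on its own against the mean of the day 0 libraries, the long-intron median was -0.309, -0.311 and -0.362 in replicates 1, 2 and 3, and the short-intron median was -0.012, -0.038 and -0.036. All 3 libraries thus set the long-intron models lower, by a mean of -0.299 ± 0.026 (SD, n = 3). The 3 values share 1 day 0 mean, so this SD leaves out the spread between day 0 libraries. In fits without day 0 replicate 1, 2 or 3, the long-intron median minus the short-intron median was -0.274, -0.328 and -0.269. Without sign, the median change at day 9 was larger in long-intron models, unlike at days 3 and 6. It was 0.642 against 0.531 in short-intron models, and 0.634 against 0.616 among models of like coding length and mean level. Whether fewer cells held the messages of long-intron models or each cell held less of them cannot be told apart in RNA of whole tissue. The count of 177 calls was 159 to 165 when any of the 6 libraries of days 0 and 9 was left out. Calls over all models were 12495 to 13178 in those fits, against 14484.

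**Figure D1:**
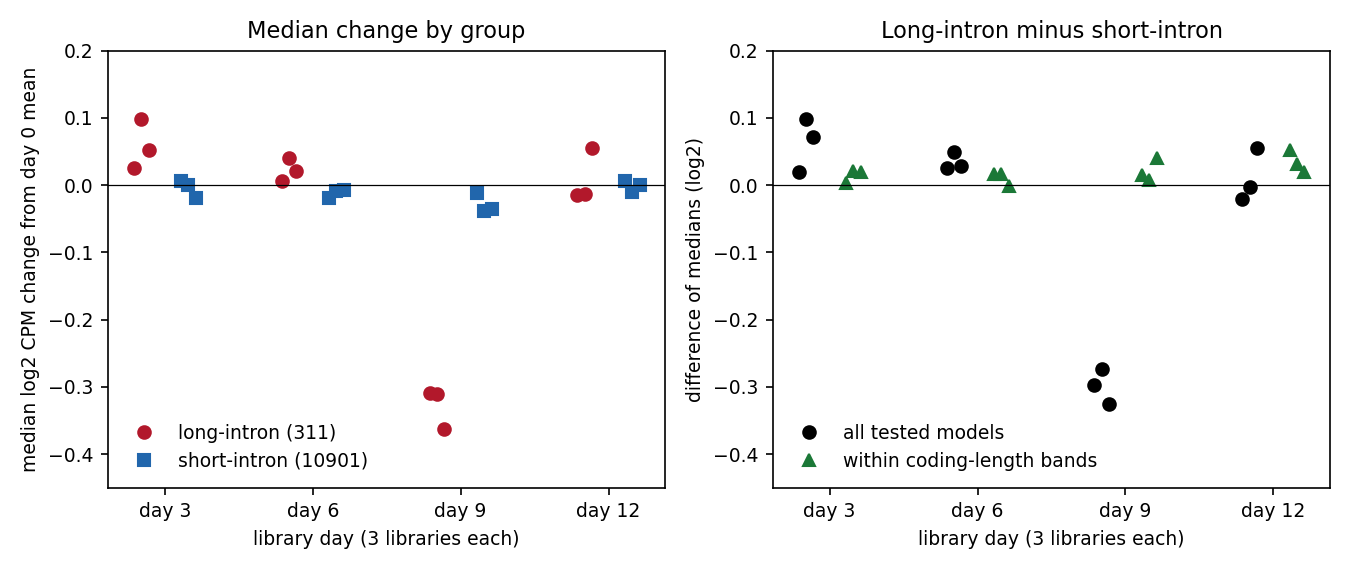
Left: median log2 change of tested models in each library against the mean of the day 0 libraries, for long-intron models (circles, n = 311) and short-intron models (squares, n = 10901). Right: the long-intron median minus the short-intron median for all tested models (circles) and averaged within 4 bands of coding length (triangles). In the circles, the 3 day 9 libraries stand apart at -0.326 to -0.273, whereas within bands they lie at 0.008 to 0.041, among those of the other days.

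**Figure D2:**
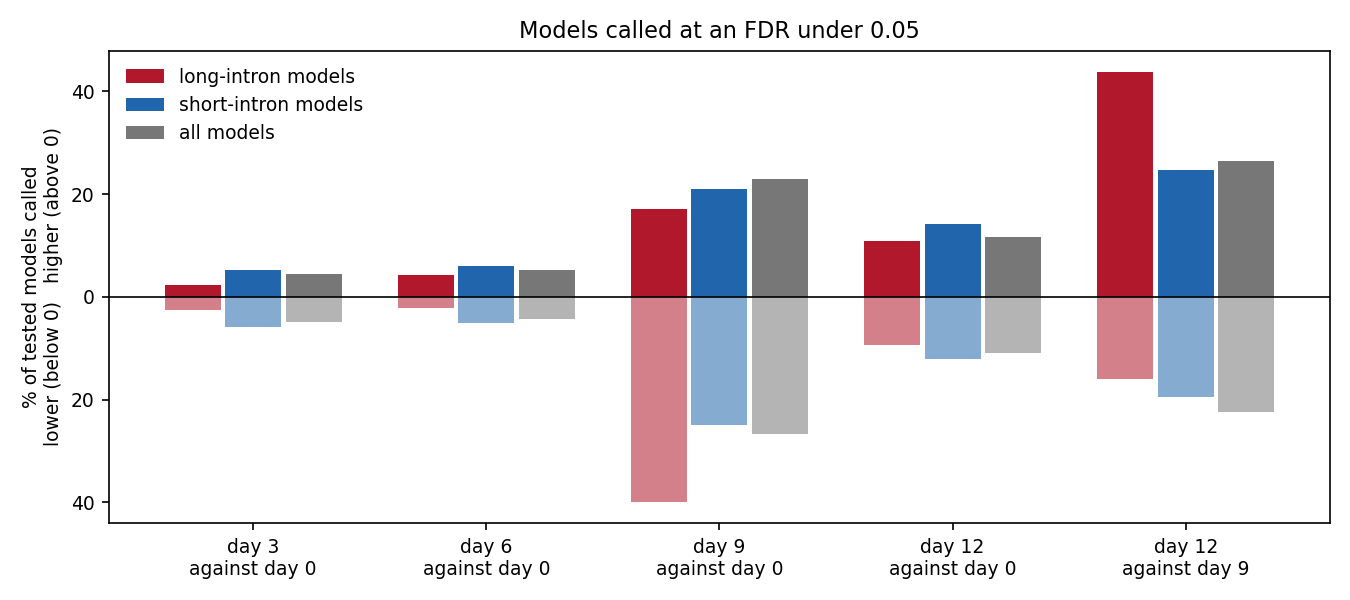
Percent of tested models called higher (above 0, full colour) or lower (below 0, pale) in each comparison, for long-intron, short-intron and all models. At day 9 against day 0, 39.9% of long-intron models were called lower, and at day 12 against day 9 43.7% were called higher, each above the short-intron models and all models.

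Within bands of coding length, the day 9 medians of long-intron and short-intron models lay closer, in both orders. Both groups were split into 4 bands of coding length and compared within each. Lengths were not equal within a band. In the longest band the median length was 3092 bases in short-intron models. It was 3393 bases in models with 10000 to under 20000 non-coding bases and 3351 bases in those with 20000 or more. From 600 to under 1200 bases, the median log2 fold change was 0.249 in 46 long-intron models and 0.193 in 5376 short-intron models. From 1200 to under 1800 bases it was -0.192 in 57 and -0.119 in 3296 models. From 1800 to under 2700 bases it was -0.175 in 92 and -0.41 in 1553 models. From 2700 to under 4500 bases it was -0.645 in 116 and -0.586 in 676 models. Both groups thus ran from above 0 among the shortest coding sequences to below -0.5 among the longest, with overlapping quartiles in every band. The long-intron median was the higher of the 2 in the bands that start at 600 and 1800 bases and the lower in those that start at 1200 and 2700. Averaged over the bands by the number of long-intron models, the difference was 0.042, against -0.297 without bands.

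The counts of calls also went with coding length in both groups. In the longest band, 59.5% of long-intron models fell and 10.3% rose, against 54.9% and 5.18% of short-intron models. In the shortest band, 15.2% of long-intron models fell and 32.6% rose, against 13.9% and 30.1%. The widest gap was in the band that starts at 1800 bases, where 34.8% of long-intron models fell and 18.5% rose, against 44.6% and 8.69%. Short-intron models weighted to the coding lengths of the long-intron models were called lower in 40.8% and higher in 11.8%, beside the 39.9% and 17.0% of long-intron models. With the trend of each library with model length removed before the test, 73 long-intron models were called lower and 97 higher, so that 57.1% of calls were higher, against 29.9% with the trend left in. In that fit 23.5% of long-intron models were lower and 31.2% higher, against 21.0% and 20.1% of short-intron models and 22% and 20.3% of all tested models. Of the 177 calls, 118 had the same direction in that fit, 53 were not called and 6 had the opposite one. The long-intron median was then 0.105 and the short-intron median 0.001. The mean model length weighted by the counts of all models moved on the same day, at 1284 ± 9.16 bases at day 9 against 1572 ± 34.6 bases at day 0 (SD, n = 3 each).

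**Figure D3:**
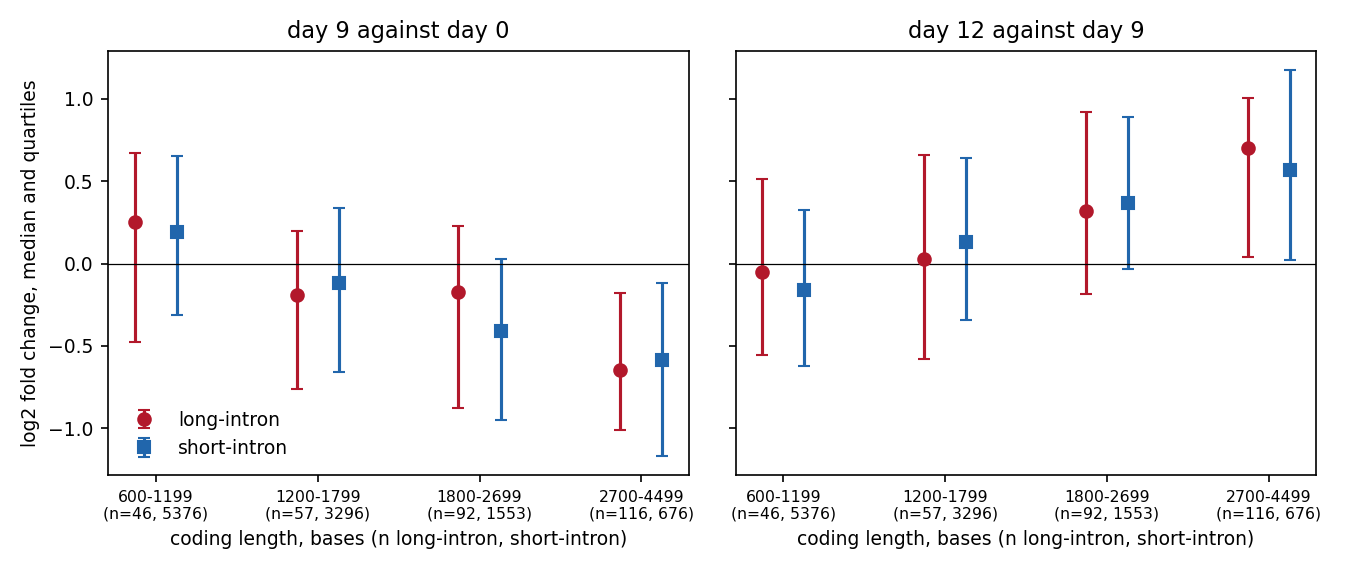
Log2 fold change by band of coding length for long-intron models (circles) and short-intron models (squares), at day 9 against day 0 (left) and at day 12 against day 9 (right). Points are medians, bars run between the quartiles, and the numbers of models stand under each band. On the left the medians of both groups are above 0 in the shortest band and at -0.645 and -0.586 in the longest, and on the right they are below 0 in the shortest band and at 0.698 and 0.567 in the longest.

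The non-coding span was also followed over all Pbr models of this coding length. Without regard to coding length, the median log2 fold change at day 9 was 0.003 in 3308 models with no non-coding bases, -0.033 with 1 to 2000, -0.242 in 5958 models with over 2000 and under 5000, and -0.437 in 1209 models with 5000 to under 10000 non-coding bases. It then turned back, to -0.383 in the 207 models with 10000 to under 20000 and -0.151 in the 104 with 20000 or more. The median coding length over these 6 classes was 1257, 1209, 1530, 2217, 2472 and 2080 bases. Among models of at least 2700 coding bases, the medians were -0.636, -0.586, -0.741, -0.785, -0.656 and -0.518 over the same classes, so the lowest was at 5000 to under 10000 non-coding bases and the highest at 20000 or more. Among those under 1200 coding bases, they were 0.305, 0.193, 0.064, 0.108, 0.25 and 0.247. In both bands the lowest median thus lay below 10000 non-coding bases. So it did from 1800 to under 2700 coding bases, with -0.363, -0.410, -0.461, -0.484, -0.237 and -0.037. From 1200 to under 1800 bases it did not: the medians were -0.047, -0.119, -0.172, -0.224, -0.306 and -0.059, lowest in the 31 models with 10000 to under 20000 non-coding bases. The class of 20000 or more held 19 models in the shortest band, and the median over that class in the longest band rests on 31 models.

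**Figure D4:**
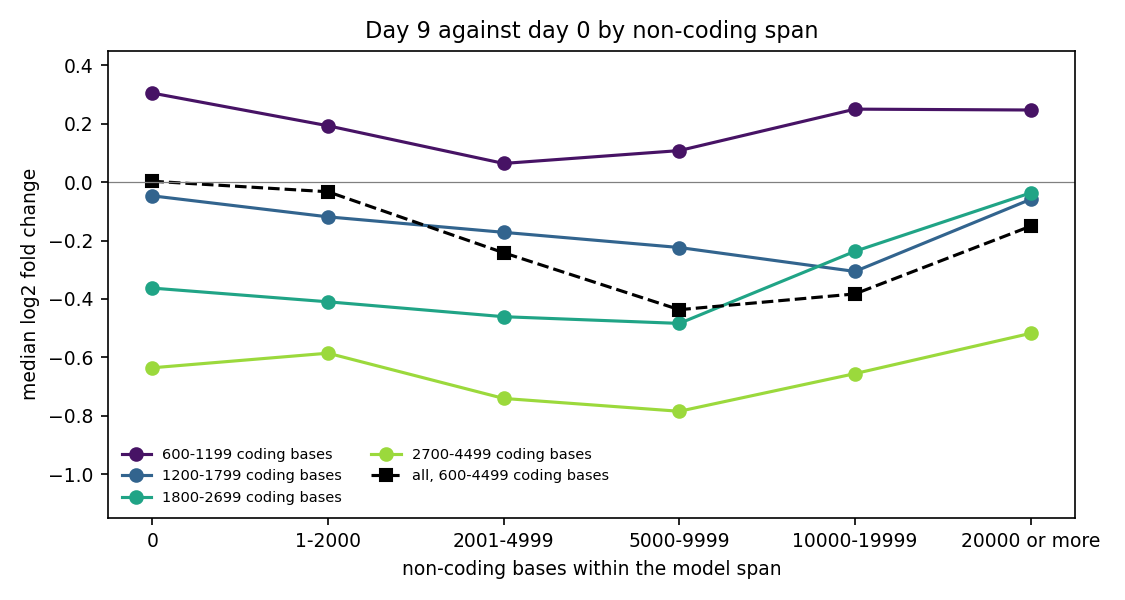
Median log2 fold change at day 9 against day 0 by non-coding bases within the span, for 4 bands of coding length (lines with circles) and for all bands together (dashed, squares). The dashed line falls to -0.437 at 5000 to under 10000 non-coding bases and lies at -0.151 at 20000 or more.

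At day 12, about as many long-intron models lay above day 0 as below it. Their share of the reads was still lower, at 1.25% to 1.34% in the 3 day 12 libraries against 1.38% to 1.42% in those of day 0. Pbr020853.1, described below, makes up at least part of this difference. It had 6532, 15215 and 17021 counts in day 0 replicates 1, 2 and 3, out of totals of 15367355, 14370019 and 14357737. In those of day 12 it had 29, 28 and 20 counts. The share of the other long-intron models was not computed here, so a lower share at day 12 is not shown for the group without this model. Against day 0, 34 rose and 29 fell, or 10.9% and 9.32%, where 11.6% and 11% of all tested models did (22.6% in either direction). Short-intron models were called higher in 14.3% and lower in 12.2%. The medians were -0.000 in long-intron models, -0.011 in short-intron models and -0.021 in all tested models, on the log2 scale. The quartiles of the long-intron models, -0.249 and 0.211, lay inside those of the short-intron models, -0.363 and 0.33. Without sign, the median change was 0.232 in long-intron and 0.347 in short-intron models, and 0.284 and 0.339 at like coding length and mean level. Without day 0 replicate 2, there were 40 calls in place of 63, and 4846 calls over all models in place of 6581.

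From day 9 to day 12, more long-intron models rose than fell. Day 12 set 136 of 311 higher than day 9 and 50 lower, or 43.7% and 16.1%, where 26.4% and 22.5% of all tested models were called so (48.9% in either direction). Short-intron models were called higher in 24.7% and lower in 19.5%. The medians were 0.316 in long-intron models, 0.042 in short-intron models and 0.014 in all tested models. Within the band of at least 2700 coding bases they were 0.698 and 0.567, with 61.2% of long-intron models and 52.5% of short-intron models higher. In the band under 1200 bases they were -0.051 and -0.163, and 12 long-intron models rose while 12 fell, or 26.1% each, against 15.4% higher and 26.7% lower in short-intron models. The bands between went the other way. The medians of long-intron and short-intron models were 0.028 and 0.129 from 1200 to under 1800 bases. From 1800 to under 2700 bases they were 0.316 and 0.368. Averaged over the bands, the difference was 0.031, against 0.275 without bands. With the length trend removed, 74 long-intron models were higher and 83 lower, or 47.1% of calls higher against 73.1% with the trend left in. This is 23.8% higher and 26.7% lower, against 20.8% and 19.1% of short-intron models and 22.1% and 19.7% of all tested models in the same fit, and the medians of long-intron and short-intron models were -0.027 and -0.000. Without sign, the median change of this step was 0.627 in long-intron and 0.517 in short-intron models. At like coding length and mean level it was 0.677 and 0.588. This step shares its day 9 libraries with the comparison of day 9 with day 0.

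Over the whole course, 222 of 311 long-intron models differed between the 5 days in the F-test over the later days, or 71.4%, where 65.8% of all tested models did and 64.7% of short-intron models. These shares were not matched for coding length. With the length trend removed, 198 of the 311 were called, and the share over all models in that fit was not computed here. The fitted log2 changes of long-intron models against day 0 ran from -9.13, at day 12, to 4.69, at day 9.

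Among the long-intron models, 2 rises and 2 falls are described one by one: those called on the most later days with 3 libraries clear of all 3 of day 0 and a mean log2 CPM of at least 1. The 2 falls were the only ones to meet this on all 4 later days. The 2 rises are those with the largest absolute log2 change on any day among 5 that met it on 3 days, and no rise met it on all 4. No names or functions are given with these IDs. Levels are CPM scaled by TMM, counts relative to the library's scaled total and not to length.

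Pbr028580.1, with a coding length of 2940 bases and 11925 non-coding bases on the plus strand of scaffold475.0 (141201 to 156065), was high on days 3, 6 and 9. In replicates 1, 2 and 3 it had 3.54, 3.75 and 4.86 CPM at day 0, 7.93, 12.2 and 8.54 CPM at day 3, 8.58, 10.3 and 12.2 CPM at day 6, 8.13, 20.7 and 12.1 CPM at day 9, and 5.26, 4.51 and 5.33 CPM at day 12. The libraries of days 3, 6 and 9 all lay above those of day 0, while day 12 replicate 2 lay within the day 0 range. It rose by a log2 fold change of 1.24 ± 0.298 at day 3 (SE, adjusted p = 0.0232, edgeR), 1.36 ± 0.298 at day 6 (adjusted p = 0.0134) and 1.75 ± 0.299 at day 9 (adjusted p = 0.000348). At day 12 it was not called against day 0 (0.315 ± 0.30, adjusted p = 0.510), and it fell against day 9 by a log2 change of -1.43 ± 0.294 (adjusted p = 0.00125). Leaving out replicate 1 or 2 of day 0, or replicate 2 of day 3, ended its day 3 call, and its day 6 call ended without day 0 replicate 2 or with only the libraries of days 0 and 6 in the fit.

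Pbr025082.1, with a coding length of 1347 bases and 10356 non-coding bases on the plus strand of scaffold4.0 (464442 to 476144), rose from day 6 on. In replicates 1, 2 and 3 it had 31.8, 25.4 and 34.0 CPM at day 0, 32.1, 31.9 and 48.9 CPM at day 3, 60.3, 58.6 and 75.2 CPM at day 6, 56.7, 70.7 and 52.7 CPM at day 9, and 53.8, 53.1 and 54.7 CPM at day 12. Day 3 overlapped day 0, and every library of the later days lay above both. The log2 fold changes were 1.09 ± 0.175 at day 6 (SE, adjusted p = 0.00273, edgeR), 0.981 ± 0.175 at day 9 (adjusted p = 0.00047) and 0.826 ± 0.174 at day 12 (adjusted p = 0.00402), against 0.308 ± 0.174 at day 3 (adjusted p = 0.293). The day 6 call was lost with only the libraries of days 0 and 6 in the fit.

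Pbr020853.1, which lies on scaffold31.0 (minus strand, 722954 to 742879) with 1722 coding and 18204 non-coding bases, had the lowest log2 fold change of the tested long-intron models against day 0 on days 6, 9 and 12. In replicates 1, 2 and 3 it had 413, 1000 and 1164 CPM at day 0, 51.7, 4.85 and 37.4 CPM at day 3, 101.6, 23.4 and 1.27 CPM at day 6, 5.30, 2.06 and 13.4 CPM at day 9, and 1.91, 1.60 and 1.11 CPM at day 12. Every later library lay below all of day 0, with wide spread on days 3 and 6. It fell by a log2 change of -4.78 ± 1.15 at day 3 (SE, adjusted p = 0.0232, edgeR), -4.36 ± 1.13 at day 6 (adjusted p = 0.0286), -6.92 ± 1.29 at day 9 (adjusted p = 0.000662) and -9.13 ± 1.46 at day 12 (adjusted p = 0.00059). From day 9 to day 12 it was not called (-2.21 ± 1.32, adjusted p = 0.183). The day 3 call held without day 0 replicate 1 and was lost in the other 5 fits that left out a library. Its day 6 call ended without replicate 2 or 3 of day 0 or replicate 2 of day 6, and with only the libraries of days 0 and 6 in the fit.

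Pbr012097.1, with a coding length of 1425 bases and 19653 non-coding bases on the plus strand of scaffold19.0 (246121 to 267198), was lower on every later day and did not go on falling. In replicates 1, 2 and 3 it had 41.1, 63.2 and 37.6 CPM at day 0, 20.9, 20.3 and 16.7 CPM at day 3, 8.96, 16.2 and 17.6 CPM at day 6, 24.2, 11.5 and 14.8 CPM at day 9, and 20.8, 21.2 and 19.2 CPM at day 12. The highest later library, day 9 replicate 1, lay below the lowest of day 0. The log2 fold changes were -1.29 ± 0.283 at day 3 (SE, adjusted p = 0.0156, edgeR), -1.72 ± 0.287 at day 6 (adjusted p = 0.00337), -1.49 ± 0.286 at day 9 (adjusted p = 0.000815) and -1.21 ± 0.282 at day 12 (adjusted p = 0.00722). Leaving out replicate 2 of day 0 or replicate 2 or 3 of day 3 ended the day 3 call, and the day 6 call with only the libraries of days 0 and 6 in the fit.

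**Figure D5:**
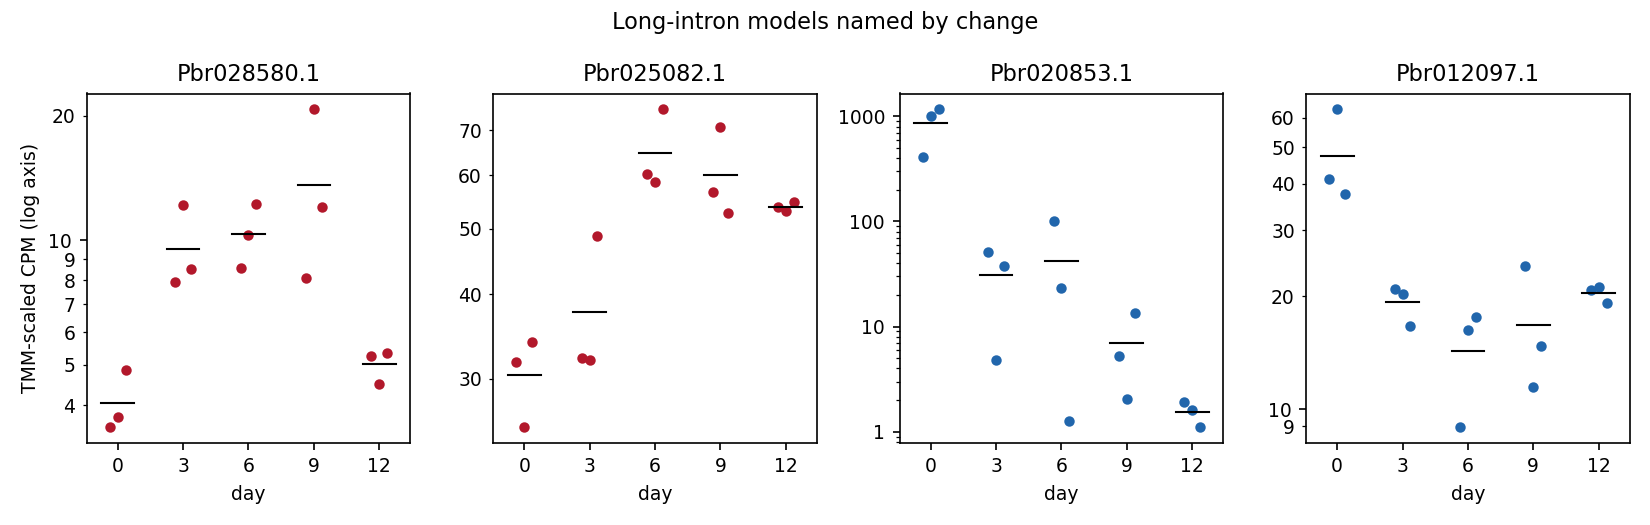
TMM-scaled CPM (log axis) of the 4 long-intron models named by change, in each library (points) with the mean of 3 libraries per day (bars). Pbr028580.1 returns near its day 0 level at day 12, at 5.03 against 4.05 CPM. Pbr020853.1 is lower on every later day, with means of 31.3, 42.1, 6.93 and 1.54 CPM on days 3, 6, 9 and 12 against 859 CPM at day 0.

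Others were picked by structure or level. The tested model with the largest non-coding span, Pbr030579.2, covered 68797 bases on the plus strand of scaffold529.0 (122585 to 191381) for a coding length of 3360 bases. It was barely expressed, with day means from 0.238 to 0.553 FPKM, and day 3 replicate 2, day 0 replicate 2 and day 12 replicate 2 stood above the others of their days. Pbr009793.1 covered 62153 bases on the minus strand of scaffold162.0 (612060 to 674212) and varied little, with day means of 23.8 ± 1.83, 20.4 ± 1.16, 23.5 ± 2.29, 24.4 ± 0.951 and 22.3 ± 3.62 FPKM from day 0 to day 12 (SD, n = 3 each). Pbr040945.1 covered 58279 bases on the minus strand of scaffold914.0 (98794 to 157072) and was among the more abundant, with 88.6 ± 4.35, 65.1 ± 3.40, 72.8 ± 4.98, 118.3 ± 4.65 and 84.2 ± 3.01 FPKM over the same days (SD, n = 3 each). Its 3 day 9 libraries lay above all the others although its coding length is 2748 bases, in the band where most long-intron models fell. The 3 models with the widest spans thus had levels from below 1 FPKM to above 100 FPKM.

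The 3 highest levels belonged to Pbr012275.1, Pbr037631.1 and Pbr032723.1, with means of 146, 128.1 and 126.9 FPKM over all libraries. Pbr012275.1, of 600 coding bases on the minus strand of scaffold19.0 (1429770 to 1442493), had 158.4 ± 6.64, 151.8 ± 0.483, 148.9 ± 4.57, 120.6 ± 14.8 and 150.4 ± 7.95 FPKM from day 0 to day 12 (SD, n = 3 each), with all 3 day 9 libraries below every other library. Pbr037631.1, of 3231 coding bases on the plus strand of scaffold77.0 (570449 to 590212), was at 121.6 ± 17.1, 158.8 ± 27.3, 148.5 ± 25.4, 68.6 ± 4.13 and 142.8 ± 14.1 FPKM from day 0 to day 12 (SD, n = 3 each), with all 3 day 9 libraries below every other library. Pbr032723.1, of 642 coding bases on the minus strand of scaffold592.0 (131499 to 142594), differed widely between libraries of a day, with 204, 463.5 and 126.1 FPKM in day 9 replicates 1, 2 and 3 and 218.8, 80.8 and 47.4 FPKM in those of day 12.

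At the cutoff itself, 1 model on each side is given. Pbr004298.1, just inside with 10009 non-coding bases and 3450 coding bases (minus strand of scaffold12.0, 1572343 to 1585801), was at 58.9 ± 1.43, 66.1 ± 3.48, 61.7 ± 1.36, 30.8 ± 1.75 and 56.3 ± 3.14 CPM from day 0 to day 12 (SD, n = 3 each). Pbr013100.1, just outside with 9998 non-coding bases and 2946 coding bases (plus strand of scaffold2.0, 1672653 to 1685596), was at 35.0 ± 1.00, 40.5 ± 0.423, 36.0 ± 0.917, 19.1 ± 0.642 and 32.5 ± 1.24 CPM on the same days. In both, the 3 day 9 libraries lay below all the others.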

How the data were processed

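Counts and FPKM values come from 1 table that the authors deposited, with the position, strand and length of each model. The deposited counts are whole numbers with no normalization, per the file headers. Dividing the counts by model length and library total gave the deposited FPKM values, within a relative tolerance of 1e-04, for all 5168 values above 0 of long-intron models and 97.6% of the 492150 of all models. The reference was the genome of *Pyrus bretschneideri*, a related pear species, as the design text says. HISAT is named per the submitters' processing notes; its version, the build, the counting program, strand use and the treatment of reads with several matches are not stated in any source used here. Model length and the span on the scaffold are given in bases by the authors' deposited table, and non-coding bases were taken as the span minus the length.

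edgeR 4.0.16 in R 4.3.3 was fitted to all models with filterByExpr by day, TMM scaling and 15 libraries (10 residual degrees of freedom). Standard errors (SE) were taken as the absolute log2 change over the root of F. CPM uses the TMM-scaled totals, and log2 CPM a prior count of 2. Alternatives were DESeq2 1.42.0, other scaling, no filter, fewer libraries, a replicate block, removal of each library's length trend (lowess, span 0.3), other non-coding spans, and each library left out. The code was tested on simulated data. The members, groups and named models were chosen with earlier results of these data known. Models were named by structure (largest non-coding span, highest mean FPKM, nearest to the cutoff) and by change, as stated with them; with no gene names, 2 rises and 2 falls were kept, ties settled by the largest absolute log2 change on any day. Lists of genes by function were not analysed here.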

Additional observations from a re-analysis of the deposited data

How the results depend on the processing

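The number of long-intron models called stayed within 1.5 times its value in all alternatives for day 9 against day 0 and day 12 against day 9. Their directions did not stay the same. With the length trend removed, 53 higher and 124 lower became 97 and 73 at day 9. From day 9 to day 12, 136 higher and 50 lower became 74 and 83. Of the 186 calls of that step, 121 kept their direction, 61 were not called and 4 had the opposite one. At day 3 the 15 calls became 30 with DESeq2, 36 in a fit that had no day 6 library (an alternative chosen after seeing the data), and 2 to 13 with a library left out. Calls over all models ran from 1004 to 2448 with a library left out, against 2728. At day 6 the 20 calls became 35 with DESeq2, 0 with only the 6 libraries of the 2 days, and 4 to 37 with a library left out. Over all models the range with a library left out was 1110 to 4382, against 2785. At day 12 against day 0 the 63 calls became 40 to 54 with a library left out, and the 6581 over all models became 4616 to 5722. Over the whole course the 222 calls were 197 to 229 with a library left out, and the shares over all models in those fits were not computed here.

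The long-intron median minus the short-intron median was -0.297 at day 9 and 0.275 from day 9 to day 12. With the length trend removed these became 0.104 and -0.027, within bands of coding length 0.042 and 0.031, and within bands and classes of mean level 0.007 and 0.001. With a cutoff of 5000 non-coding bases they were -0.391 and 0.365, and with 20000 bases -0.118 and 0.146. At day 9 the difference was -0.264 with only the 6 libraries of the 2 days and -0.328 to -0.245 with a library left out. At day 3 the difference of 0.061 became 0.010 within bands and classes of level and 0.011 with 20000 bases. At day 6 the difference of 0.030 became 0.014 within bands and 0.012 to 0.044 with a library left out. Apart from the length settings, whose own construction takes coding length or level out, the cause was not tested. No long-intron model overlapped another model, so leaving out such models removed none.

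The labels number the replicates without saying what a number shares. Same-numbered libraries of 2 days deviated together with correlations from -0.082 to 0.166 over 30 pairs, 2 of them above 0.1. Both of these were between days 0 and 6, at 0.133 in replicate 1 and 0.166 in replicate 2, with 0.091 in replicate 3. Whether same-numbered libraries shared a culture or a batch cannot be told from such values. With the replicate block, 17, 20, 175 and 59 long-intron models were called at days 3, 6, 9 and 12 against day 0 and 185 from day 9 to day 12. Over all models, that fit called 2405, 2513, 14282 and 6396 against day 0 and 14047 from day 9 to day 12. With the length trend also removed, the block gave 170 long-intron models at day 9, and 12116 of all models.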
